A study of Mus musculus with 6 samples.

Results

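The transcripts described here are those of neurotensin and its receptors: Nts, which encodes the precursor of the peptide neurotensin, Ntsr1 and Ntsr2, which encode its G protein-coupled receptors, and Sort1, which encodes sortilin, another protein that binds it. They were taken by gene symbol, 4 of the 19954 genes of the count table, and none was missing. RNA was counted in single nuclei of the spinal cord of wild type C57BL/6 mice, all of which, in both groups, carried a severe thoracic contusion with paralysis of the legs. The TESS group (3 samples) received electrical stimulation of the cord during 30 min on a treadmill, and the CON group (3 samples, labelled paralyzed) spent the same 30 min there without stimulation. The design text places agonists of the 5-HT1a and D1 receptors with the stimulation, and does not state whether CON mice received them too. The tissue is labelled lumbar cord, whereas the extraction text names the thoracic injury.

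Neurotensin is cut from a larger precursor in secretory granules and released from neurons. Its receptors Ntsr1 and Ntsr2 couple mainly to Gq proteins and phospholipase C, and sortilin is a Vps10p-domain protein that sorts cargo between the Golgi and endosomes and binds the peptide as well. In the spinal cord, neurotensin is known from excitatory interneurons of the superficial dorsal horn, and Ntsr2 is known from astrocytes as well as neurons.

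The members lie on 4 chromosomes of GRCm38 in the GENCODE vM21 annotation. Nts spans chr10:102481756-102490486 on the minus strand, Ntsr1 chr2:180499976-180544980 on the plus strand and Ntsr2 chr12:16653382-16660227 on the plus strand, and none of these overlaps another annotated gene. Sort1 spans chr3:108284082-108361511 on the plus strand and overlaps 2 other annotated genes, the antisense gene Gm12523 and Gm43099. Since no source used here states whether counting used the strand, the Sort1 counts may include reads of these 2 genes.

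The start region of Nts is shown because Nts is the member that differed between the groups. The AP-1 motif is bound by the products of genes such as Fos and Junb. Whether any marked motif has a part in the change of Nts was not tested. The sequence is from RefSeq (GRCm38.p6, chr10:102490369-102490668, minus strand) and runs from 250 bases before the start to 50 after it. Capitals mark, in order, the AP-1 motif TGANTCA, the cyclic AMP response element TGACNTCA with any middle base, and the TATATA run.
Nts: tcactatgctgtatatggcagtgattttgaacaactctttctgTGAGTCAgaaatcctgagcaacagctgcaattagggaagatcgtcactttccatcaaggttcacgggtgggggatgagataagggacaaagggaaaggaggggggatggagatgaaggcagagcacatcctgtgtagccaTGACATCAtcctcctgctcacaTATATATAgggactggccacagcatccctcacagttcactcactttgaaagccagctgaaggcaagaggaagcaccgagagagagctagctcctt
The AP-1 motif began 207 bases before the start, and 7.81% of 32851 mouse promoters of the same length hold one on either strand. The letters TGACNTCA began 67 bases before it and occur in 8.83% of the promoters, while the exact element TGACGTCA is not in this window and occurs in 1.79%. Overlapping TATATA runs began 45 and 43 bases before it and occur in 5.67%. The GENCODE gene starts 68 bases upstream of the RefSeq start, so by that annotation the AP-1 motif begins 139 bases before the gene and the other matches lie within it. A match of letters is a description of the window.

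The table held 18514 nuclei, of which 6035 were neurons in 38 subtypes by the authors' labels, and the design text gives higher totals. Total UMIs (unique molecular identifiers, 1 per captured RNA molecule) were 2891177, 2316796 and 1582104 in TESS 1 to 3, against 4003227, 4037976 and 3365530 in CON 1 to 3. Median UMIs per neuron were 2130, 1307 and 1210 in TESS samples and 1880, 2104.5 and 1512 in CON samples. TESS 1, CON 1 and CON 2 share a deposited batch number, and each of the other samples has one of its own. Of the barcodes, 205 occurred in more than 1 library. The labels do not tell whether samples came from different mice, and p-values therefore measure the spread between these samples, which may be technical.

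Across the major cell types, the ligand was a neuronal transcript, Ntsr2 an astrocyte transcript and Sort1 a transcript of every type. Neurons held 1952 of the 2016 Nts UMIs (96.8%). Astrocytes held 1304 of the 1640 Ntsr2 UMIs (79.5%), while oligodendrocytes held 1441 of the 2772 Sort1 UMIs (52.0%) and neurons 1113 (40.2%). Ntsr1 was close to the limit of detection, with 34 UMIs in all, 32 of them in neurons. No Ntsr1 UMI was found in 1091 astrocytes, which allows up to 0.275% of astrocytes with one, or in 1656 microglia, which allows up to 0.181%. Intervals and limits of this kind cover counting error only.

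**Figure D1:**
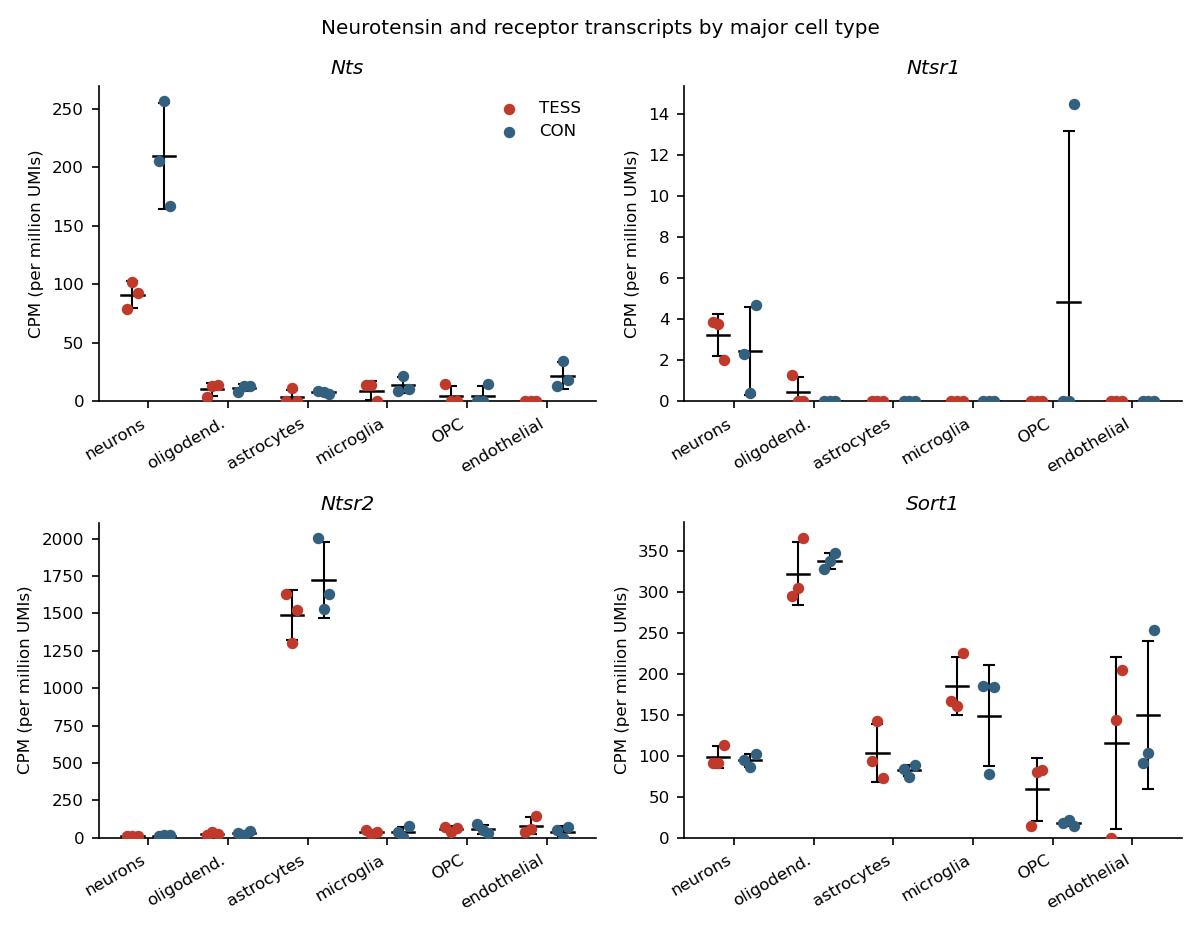
Level, as CPM (UMIs of a gene scaled to 1e+06 UMIs of the class), of Nts, Ntsr1, Ntsr2 and Sort1 in 6 major cell types (OPC, oligodendrocyte precursors), for 3 TESS samples (left of each pair) and 3 CON samples (right); points are samples, lines means and bars SDs, ending at the axis at 0. Nts stands out in neurons, where TESS samples lie between 78.6 and 102 CPM, below the CON samples, and Ntsr2 stands out in astrocytes.

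Because nuclei of different types were sequenced to different depths, detection was also computed with each nucleus thinned to 500 UMIs. At that depth 4.33% of neurons held an Nts UMI, against 0.404% of oligodendrocytes, a type not known to make neurotensin (6.74% and 0.521% without thinning; median depths 1688 and 433 UMIs). An Ntsr2 UMI was found in 55.2% of astrocytes at 500 UMIs and in 62.6% without thinning, at a median depth of 652. Neurons held one in 0.651% at 500 UMIs, which is below the 1.13% of oligodendrocytes, so Ntsr2 in neurons as a whole was at the background level. Sort1 was found in 15.7% of oligodendrocytes, 4.62% of neurons, 4.22% of astrocytes and 1.44% of oligodendrocyte precursors at 500 UMIs. Ntsr1 was found in 0.153% of neurons and in no oligodendrocyte at that depth.

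Among the 38 neuron subtypes, Nts was concentrated in 2, named Nts and Rora/Adarb2 by the authors. These levels are a description, since the Nts subtype may have been defined with this gene. The Nts subtype (161 nuclei) held 60.7% of the neuronal Nts UMIs at 6554 CPM pooled over the samples (exact Poisson interval 6186 to 6938), and 90.1% of its nuclei had at least 1 UMI. The Rora/Adarb2 subtype (104 nuclei) held 17.3% at 2048 CPM (1835 to 2279), with a UMI in 43.3% of nuclei. In both, the 3 excitatory markers summed higher than in all neurons and the 4 inhibitory markers lower. The sums were 531 and 38.7 CPM in the Nts subtype and 371 and 79.0 CPM in Rora/Adarb2. In all neurons they were 224 and 500 CPM. Among single markers, Slc17a6, the vesicular glutamate transporter, was at 244 CPM in the Nts subtype and 267 CPM in Rora/Adarb2. Slc32a1, an inhibitory marker, had 1 UMI in the Nts subtype and 4 in Rora/Adarb2. Gad2, a GABA-synthesising enzyme, had 2 UMIs in the Nts subtype and 0 in Rora/Adarb2. The other inhibitory markers, Gad1 and Slc6a5, are part of the sums and are not given singly. Tlx3, a factor of dorsal excitatory neurons, was at 188 CPM in the Nts subtype and 6.08 CPM in Rora/Adarb2. Markers of oligodendrocytes, which cover 4 genes, summed to 1107 CPM in the Nts subtype and 620 CPM in all neurons.

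The sample ranges of the Nts subtype and Rora/Adarb2 did not overlap, nor did those of Rora/Adarb2 and the next subtype, while every later pair of neighbours in the order overlapped. Trh (289 CPM), Rora/Parp8 (249 CPM), Maf/Clbn2 (243 CPM) and Tac2/Nmu (182 CPM), all excitatory, followed, and then MN, which holds motor neurons and other cholinergic cells, with 134 CPM and a UMI in 20.3% of 69 nuclei. The highest inhibitory subtype was V1/V2b/Nxph1 with 58.4 CPM. Of the 38 subtypes 23 were under 20 CPM, where oligodendrocytes stood at 10.5 CPM, and 5 had no Nts UMI. The largest of these, Rorb, had 0 of 111 nuclei, which allows a share of up to 2.70%. By transmitter class, 1850 Nts UMIs fell in the 21 excitatory subtypes, 67 in the 16 inhibitory ones and 35 in MN.

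**Figure D2:**
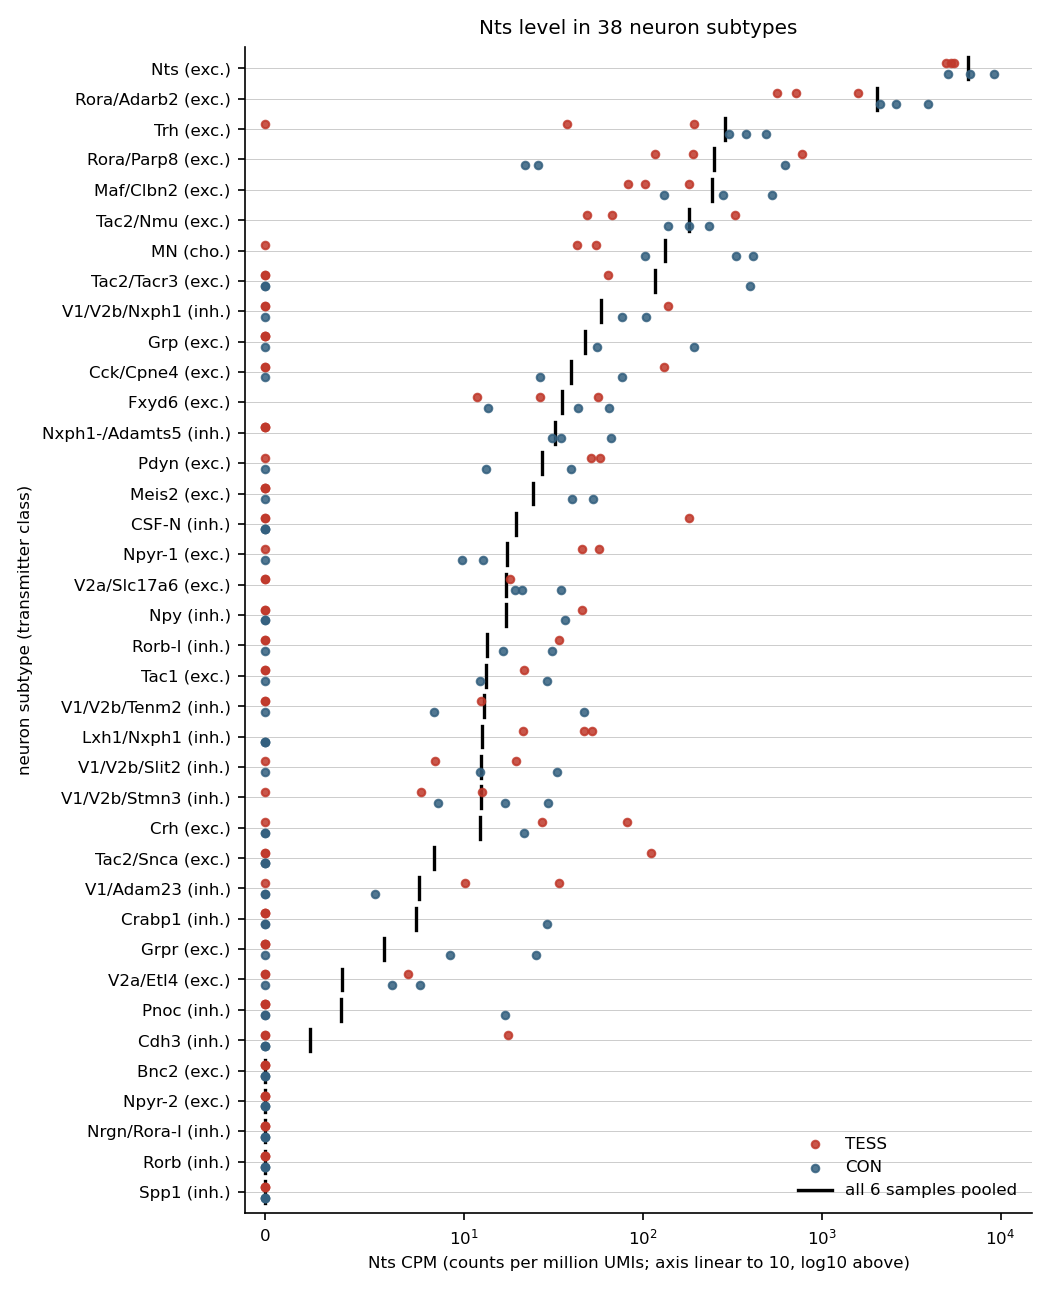
Nts CPM (linear to 10, log10 above) in each of 38 neuron subtypes, ordered by the level pooled over 6 samples (black line); each point is a sample, TESS above and CON below in each row, and the transmitter class is given in brackets (exc., excitatory; inh., inhibitory; cho., cholinergic). The Nts and Rora/Adarb2 subtypes stand apart at 6554 and 2048 CPM, and most others scatter near or at 0.

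Within the top subtypes the transcript was spread unevenly over nuclei. In the Nts subtype, TESS nuclei had a median of 5 Nts UMIs and at most 13, and CON nuclei had a median of 7 and at most 42. No TESS nucleus of 56 and 7 CON nuclei of 105 had 20 or more. In Rora/Adarb2, 28 of 37 TESS nuclei and 31 of 67 CON nuclei had no Nts UMI, and 5 nuclei held 34 of the 39 TESS UMIs. These counts do not adjust for depth.

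The main question of the design was what stimulation changed. Over all neurons, Nts fell in TESS samples. It stood at 78.6, 102 and 92.4 CPM in TESS 1 to 3 (142, 164 and 91 UMIs), against 205, 256 and 166 CPM in CON 1 to 3 (532, 667 and 356 UMIs). The highest TESS sample lay well below the lowest CON sample. The log2 fold change was −1.23 ± 0.16 (SE; edgeR quasi-likelihood test, adjusted p = 0.00064), where 0.770% of 11686 genes tested were called lower in TESS (1.04% in either direction) and 8.61% had groups that did not overlap with TESS lower. In all nuclei summed, the log2 fold change was −1.20 ± 0.18 (adjusted p = 0.0056, edgeR), with 0.500% of genes called lower and 0.754% in either direction. That call was lost without TESS 3 (−1.17, adjusted p = 0.051) and with a batch term (−1.62, adjusted p = 0.41). Within the shared batch, TESS 1 stands at 78.6 CPM against 205 and 256 CPM. Each other sample is alone in its batch, so with a batch term the change rests on TESS 1 against CON 1 and CON 2. A call lost with this term therefore cannot be told apart from the loss of samples. With batch as a term, the change was −1.59, but no gene of neurons was called (edgeR adjusted p = 0.73 for Nts; 765 genes had an unadjusted p under 0.05).

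The fall was carried by excitatory neurons. There Nts had 150, 184 and 178 CPM in TESS samples, against 393, 460 and 293 CPM in CON samples. No TESS sample reached the lowest CON sample, and the log2 fold change was −1.20 ± 0.16 (adjusted p = 4.5e-05, edgeR; 0.660% of genes called lower and 0.901% in either direction, and 7.72% not overlapping with TESS lower). In inhibitory neurons it had 5.88, 18.6 and 8.38 CPM in TESS samples and 17.0, 8.54 and 13.3 CPM in CON samples. These overlapped (−0.24 ± 0.42, adjusted p = 0.88, edgeR; 0.292% of genes called), with 23 UMIs in TESS and 44 in CON samples. The difference between the classes was not tested. In oligodendrocytes, where Nts counts are taken as background, the levels also overlapped (10.2 ± 5.44 CPM in TESS samples and 11.5 ± 2.99 CPM in CON samples, mean ± SD, n = 3 each), with a log2 change of −0.42 ± 0.51 (adjusted p = 0.77, edgeR; 1.65% of genes called).

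Marker sums in neurons overlapped between the groups for most lists and did not for some, and no test was run on them. The lists of neurons, oligodendrocytes, astrocytes, microglia, endothelial cells and Schwann cells all overlapped. The 4 inhibitory markers summed to between 530 and 606 CPM in TESS samples and between 423 and 509 CPM in CON samples, which did not overlap, while the 3 excitatory markers overlapped. The 2 cholinergic markers ranged between 21.8 and 38.2 CPM in TESS samples and between 14 and 18.9 CPM in CON samples. The 3 markers of oligodendrocyte precursors ranged between 16.2 and 20.3 CPM in TESS samples and between 9.61 and 12 CPM in CON samples, and the 3 ependymal ones between 4.99 and 8.13 CPM in TESS samples and between 1.93 and 2.80 CPM in CON samples. None of these 12 genes was at 0 in neurons, and their part in the change of Nts was not tested.

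The neuron groups that hold most Nts were then taken apart. In the Nts subtype, Nts was at 4957, 5301 and 5494 CPM in TESS samples (12, 29 and 15 nuclei), against 6783, 9172 and 5087 CPM in CON samples (40, 27 and 38 nuclei). The lowest CON sample lay inside the TESS range. The log2 fold change of −0.51 ± 0.20 did not pass (adjusted p = 0.46, edgeR; 1 of 454 genes, 0.220%, called), and without CON 2, the highest sample, it was −0.23. It was −0.92 with no filter on low counts and −0.81 with a batch term, and passed in neither (adjusted p = 0.22 and 0.61). Nuclei of this subtype were shallower in some TESS samples, with medians of 1356.5, 777 and 668 UMIs in TESS 1 to 3 and 1254.5, 1387 and 964 in CON 1 to 3.

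In Rora/Adarb2, Nts was at 561, 717 and 1596 CPM in TESS samples (17, 8 and 14 Nts UMIs), against 3934, 2123 and 2592 CPM in CON samples (89, 130 and 79 UMIs). All TESS samples lay below all CON samples, and the log2 fold change was −1.86 ± 0.33 (adjusted p = 0.00024, edgeR; 2 of 370 genes, 0.541%, called, both lower, and 5.68% not overlapping with TESS lower). This subtype was tested after its values had been seen, since it has 8 nuclei in TESS 3, below the minimum of 10 per sample. Without TESS 1 the change was −1.43 and no longer passed (adjusted p = 0.32). The TESS level rests on 39 UMIs.

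In all neurons outside these 2 subtypes, Nts was at 23.3, 24.2 and 22.8 CPM in TESS samples, against 42.9, 58.0 and 37.2 CPM in CON samples. The groups did not overlap, and the log2 fold change was −1.0 ± 0.21 (adjusted p = 0.022, edgeR; 0.717% of genes called lower and 0.977% in either direction, and 8.67% not overlapping with TESS lower). Leaving out a sample gave −1.12 to −0.77, with the adjusted p above 0.05 for TESS 1, TESS 2, TESS 3 or CON 2 left out and 0.14 at the highest. Outside the Nts subtype alone the log2 fold change was −1.44 ± 0.19 (adjusted p = 0.00048, edgeR; 0.742% of genes called lower and 1.00% in either direction), and it passed without any 1 sample. With a batch term neither value passed (−1.55 outside the Nts subtype, adjusted p = 0.73, and −1.15 outside both, adjusted p = 0.61, edgeR).

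**Figure D3:**
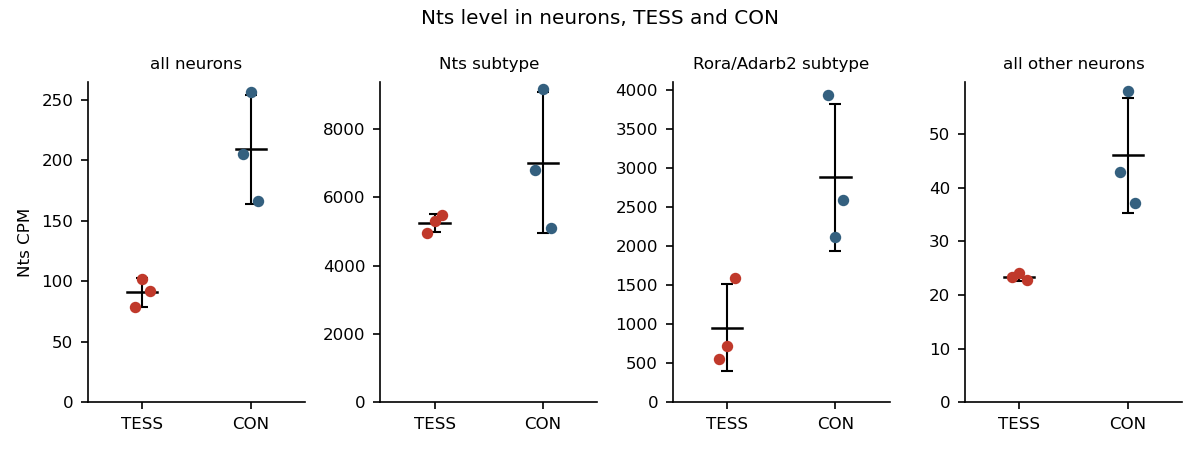
Nts CPM in all neurons, the Nts subtype, the Rora/Adarb2 subtype and all other neurons, for 3 TESS samples (left) and 3 CON samples (right); points are samples, lines means and bars SDs, each panel with its own axis from 0. TESS samples lie below CON samples in all neurons, in Rora/Adarb2 and in the other neurons, and in the Nts subtype CON 3 (5087 CPM) falls within the TESS range.

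The fitted change in the Nts subtype was less negative than that in all other neurons by 1.01 ± 0.22 on the log2 scale (edgeR interaction term with the sample as a block, adjusted p = 0.018; 0.441% of 454 genes called). Nts itself may have been used to define this subtype, so the nuclei compared may have been chosen in part by the gene tested, and the value is given as a description. It was 0.56 with no filter on low counts (edgeR adjusted p = 0.89), and between 0.82 and 1.05 with 1 sample left out, where it passed only without TESS 3. The other neurons include Rora/Adarb2. In separate fits the log2 fold change was −0.51 in the Nts subtype, −1.44 in all neurons outside it and −1.0 outside both subtypes. The difference was not tested with Rora/Adarb2 left out.

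Among other subtypes, Nts was low and scattered. Trh had 37.8, 193 and 0 CPM in TESS samples, against 302, 488 and 378 CPM in CON samples, and MN had 0, 55.0 and 42.9 CPM in TESS samples, against 102, 415 and 334 CPM in CON samples. In these 2 the groups did not overlap. The same held with TESS lower in V2a/Slc17a6 (2 UMIs in TESS and 11 in CON samples) and Nxph1-/Adamts5 (0 in TESS and 4 in CON samples). In Lxh1/Nxph1 it held with TESS higher (3 in TESS and 0 in CON samples). Maf/Clbn2 overlapped (10 in TESS and 77 in CON samples). Of 12 subtypes with at least 10 Nts UMIs, the 2 with the highest levels included, 10 were lower in TESS by CPM pooled over samples and 2 higher. The share over all genes is not given for these subtypes, so the counts of subtypes are a description only. Trh rests on 5 UMIs in TESS and 48 in CON samples, and MN on 4 in TESS and 31 in CON samples. Tac2/Nmu had 329, 48.7 and 67.6 CPM in TESS samples and 236, 139 and 182 CPM in CON samples, and Rora/Parp8 had 773, 117 and 192 CPM in TESS samples and 25.9, 628 and 22.1 CPM in CON samples, so both overlapped. Of the subtypes named in this paragraph, none met both the minimum of nuclei and the minimum of counts for the gene test.

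How many neurons held a detected transcript and how much each of these held were computed at 500 UMIs per nucleus. A fixed depth takes out differences in depth only. A lower level per nucleus would also lower the share with a UMI, so the 2 measures do not separate share from level. The share of neurons with an Nts UMI was 3.07%, 3.45% and 2.73% in TESS samples, against 5.33%, 5.19% and 4.94% in CON samples. No TESS sample reached a CON sample, with means of 3.08 ± 0.36% in TESS and 5.15 ± 0.20% in CON samples (SD, n = 3 each; two-sided exact permutation p = 0.1, the smallest that 3 against 3 allows). Without thinning the means were 4.82 ± 0.85% in TESS and 8.08 ± 0.56% in CON samples. Neurons with Nts held 2.13, 2.49 and 2.38 Nts UMIs in TESS samples, against 2.88, 3.48 and 2.50 in CON samples at 500 UMIs. The groups did not overlap, and CON 3 lay just above TESS 2 (2.33 ± 0.18 in TESS and 2.95 ± 0.50 in CON samples, exact permutation p = 0.1), and at 250 UMIs they overlapped (exact permutation p = 0.2). Without CON 2 the difference in UMIs per such neuron was −0.355, against −0.621 with all samples. Within the shared batch the TESS minus CON difference was −2.19 percentage points for the share and −1.05 UMIs per such neuron.

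Within classes the same share was also computed, and no test compared the classes. In the Nts subtype, which may have been defined by holding Nts and where the share is near its ceiling, 89.5 ± 7.80% of TESS nuclei and 89.2 ± 8.85% of CON nuclei held an Nts UMI at 500 UMIs (exact permutation p = 1.0, n = 3 each), and the UMIs per such nucleus overlapped (3.1 ± 0.32 in TESS and 3.85 ± 0.83 in CON samples). In Rora/Adarb2 the share was 14.9%, 23.3% and 24.6% in TESS samples, against 56.1%, 28.2% and 48.9% in CON samples. These did not overlap (exact permutation p = 0.1). Outside both subtypes it was 1.2 ± 0.04% in TESS and 1.92 ± 0.26% in CON samples, again with no overlap (exact permutation p = 0.1, n = 3 each). The Nts UMIs per nucleus with Nts overlapped in Rora/Adarb2 (2.55 ± 0.70 in TESS and 3.86 ± 0.86 in CON samples, exact permutation p = 0.2). They also overlapped outside both subtypes (1.18 ± 0.07 in TESS and 1.37 ± 0.15 in CON samples, exact permutation p = 0.2). The same share in oligodendrocytes was 0.248 ± 0.352% in TESS and 0.546 ± 0.248% in CON samples, with overlap, and background RNA makes up an unknown part of the low shares.

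The size of the Nts subtype was compared only after each neuron had been placed again with Nts left out of all profiles. This placed 72.0% of all neurons in the subtype the authors gave them, and 137 of 161 Nts nuclei. The profiles were pooled from the authors' subtypes, which may have been defined with Nts. Of the 144 nuclei placed in the Nts subtype, 137 were already the authors' Nts nuclei. The comparison is therefore not independent of the authors' labels. The share of neurons placed in the Nts subtype was 1.5%, 2.24% and 1.85% in TESS samples (11, 24 and 13 nuclei), against 3.1%, 2.56% and 2.51% in CON samples (37, 28 and 31 nuclei). The groups did not overlap (1.86 ± 0.37% in TESS and 2.72 ± 0.33% in CON samples, exact permutation p = 0.1, n = 3 each). The nuclei so placed held 5231, 5606 and 5992 CPM of Nts in TESS samples, against 7136, 9039 and 6158 CPM in CON samples, which also did not overlap (exact permutation p = 0.1). Both the share of such neurons and the level in them were lower in every TESS sample than in any CON sample.

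Holding the subtype makeup fixed at its mean over the 6 samples gave a smaller change than the makeup as observed. The Nts subtype may have been defined with Nts, and the placed subtypes rest on the same labels. A lower level per nucleus could then move nuclei out of this subtype and count as makeup. The values below therefore do not divide level from makeup. Over the 24 subtypes with at least 10 nuclei in every sample, Nts stood at 110, 119 and 115 CPM in TESS samples, against 154, 205 and 120 CPM in CON samples. CON 3 lay just above TESS 2, the highest TESS sample, and the difference was −0.45 on the log2 scale (exact permutation p = 0.1, n = 3 each). With the makeup as observed, the same subtypes gave −1.07. With subtypes placed without Nts the 2 values were −0.48 and −1.16, and over all 38 subtypes, which include Rora/Adarb2, they were −0.65 and −1.19. Without CON 2 the fixed-makeup value was −0.26. Within the shared batch it was −0.70, where 1 TESS sample stands against 2 CON samples.

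**Figure D4:**
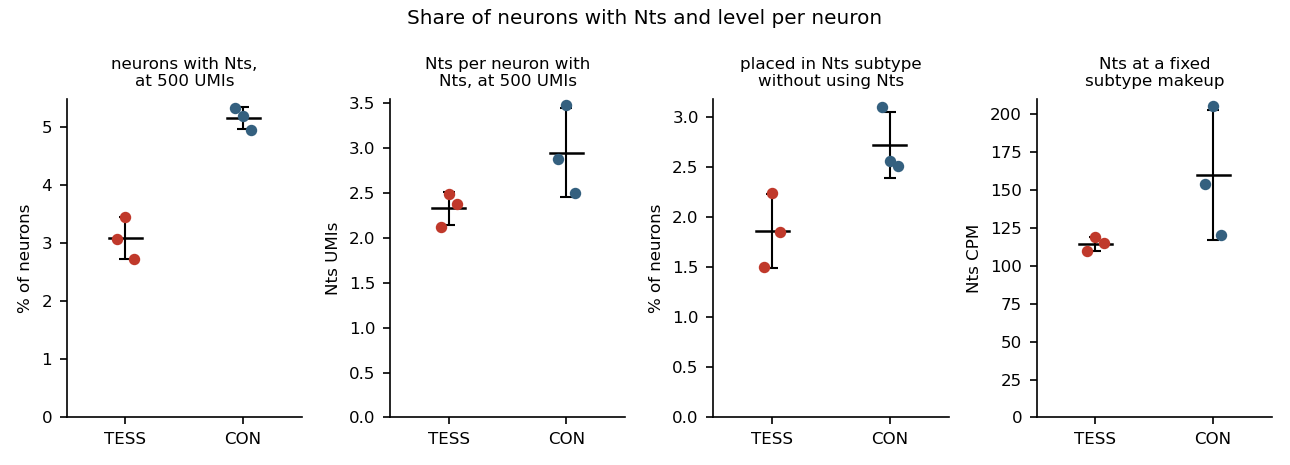
For 3 TESS samples (left) and 3 CON samples (right): percent of neurons with an Nts UMI at 500 UMIs per nucleus, Nts UMIs per such neuron, percent of neurons placed in the Nts subtype with Nts left out, and Nts CPM at a fixed makeup of 24 subtypes; points are samples, lines means and bars SDs. TESS samples lie below CON samples in each panel, with the widest gap in the share of neurons (at most 3.45% in TESS and at least 4.94% in CON samples).

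Scaled to 1e+06 UMIs of all neurons, the Nts subtype gave 46.5, 73.6 and 55.9 Nts UMIs in TESS samples, against 129, 151 and 93.5 in CON samples. Rora/Adarb2 gave 9.41, 4.99 and 14.2 in TESS samples, against 34.4, 49.96 and 36.9 in CON samples. All other neurons together gave 22.7, 23.7 and 22.3 in TESS samples, against 41.7, 55.7 and 36 in CON samples. Each of the 3 sources was lower in every TESS sample (exact permutation p = 0.1 for each, n = 3 per group, 3 comparisons). The log2 ratios of the TESS mean to the CON mean were −1.09 for the Nts subtype, −2.08 for Rora/Adarb2 and −0.96 for the rest. The Nts subtype gave 63.8 ± 7.05% of neuronal Nts in TESS and 59.3 ± 3.43% in CON samples, which overlapped, and Rora/Adarb2 gave 10.7 ± 5.36% in TESS and 19.5 ± 2.73% in CON samples, which did not.

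**Figure D5:**
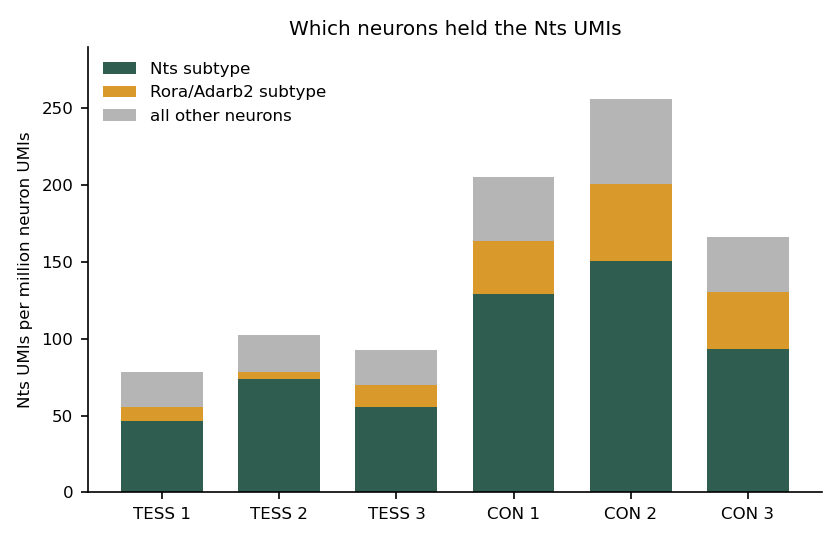
Nts UMIs scaled to 1e+06 UMIs of all neurons in each of 3 TESS and 3 CON samples, stacked by whether they came from the Nts subtype, the Rora/Adarb2 subtype or all other neurons. TESS bars reach 78.6 to 102 and CON bars 166 to 256, and the Rora/Adarb2 section is 4.99 to 14.2 in TESS and 34.4 to 49.96 in CON samples.

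Of the receptors, Ntsr1, the high-affinity receptor, was too rare to compare between groups. Neurons held 7, 6 and 2 Ntsr1 UMIs in TESS samples, against 6, 1 and 10 in CON samples, and it did not pass the filter on low counts in any class. Of its 32 neuronal UMIs, 28 lay in inhibitory subtypes: 14 in Cdh3, 6 in Npy and 3 in Crabp1. Cdh3 had a UMI in 5.45% of 220 nuclei (exact binomial interval 2.85 to 9.34%), with 5, 2 and 2 UMIs in TESS samples and 2, 0 and 3 UMIs in CON samples, which overlapped. At 500 UMIs the share was 1.83% in Cdh3 and 1.87% in Npy, while no oligodendrocyte had one. In Npy, TESS 1, CON 1 and CON 3 gave 2 UMIs each and the other samples 0, so no sample stood apart. Of 407 neurons with an Nts UMI, 0 had an Ntsr1 UMI, where 0.464% of all neurons had one, so a lower share was not detectable at this depth.

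Ntsr2, the low-affinity receptor, was at 1632, 1304 and 1523 CPM in astrocytes of TESS samples (93, 173 and 154 nuclei), against 2007, 1526 and 1631 CPM in astrocytes of CON samples (293, 130 and 248 nuclei). The groups overlapped, and the log2 fold change of −0.25 ± 0.17 did not pass (adjusted p = 0.64, edgeR; 0.976% of 2049 genes called in either direction). In all nuclei Ntsr2 was at 57.8, 67.3 and 98.0 CPM in TESS samples and 138, 62.2 and 107 CPM in CON samples (−0.51 ± 0.22, adjusted p = 0.30, edgeR). Astrocytes made up 3.52%, 6.09% and 7.03% of the nuclei in TESS samples and 8.04%, 3.81% and 6.56% in CON samples. In each group the sample with the lowest all-nuclei level had the smallest share of astrocytes.

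In neurons Ntsr2 was at 10.5, 8.73 and 9.14 CPM in TESS samples (19, 14 and 9 UMIs), against 11.2, 15.0 and 15.4 CPM in CON samples (29, 39 and 33 UMIs). The groups did not overlap, but the change of −0.55 ± 0.29 did not pass (adjusted p = 0.40, edgeR). In inhibitory neurons, at 7.06, 7.98 and 10.5 CPM in TESS samples and 14.6, 17.9 and 21.6 CPM in CON samples, it was −1.13 ± 0.39 (adjusted p = 0.22, edgeR; 7.80% of genes there had groups that did not overlap with TESS lower). The highest neuron subtype was Rorb-I, an inhibitory one, with 54.1 CPM and a UMI in 9.22% of 217 nuclei. At 500 UMIs that share was 3.02% in Rorb-I, against 1.13% of oligodendrocytes, 2.51% of endothelial cells, 2.95% of oligodendrocyte precursors and 3.33% of microglia. The microglial value rests on 219 nuclei of that depth and was 1.39% over all microglia without thinning, and the share in Rorb-I lay within the range of these types. Of the 407 neurons with Nts, 7 held an Ntsr2 UMI, where 2.35% of all neurons held one.

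Sort1 was the most even of the members over the neurons. All 38 subtypes held it, between 39.7 CPM in Grp and 172 CPM in Npy, with a median of 95.3 CPM, and the sample ranges of neighbours in the order overlapped throughout. In neurons Sort1 was at 90.8, 91.0 and 114 CPM in TESS samples and 94.6, 86.9 and 103 CPM in CON samples. The groups overlapped, with a log2 fold change of 0.02 ± 0.14 (adjusted p = 0.96, edgeR). In oligodendrocytes it was at 296, 305 and 367 CPM in TESS samples and 329, 338 and 349 CPM in CON samples (−0.13 ± 0.16, adjusted p = 0.77, edgeR). In the 5 single subtypes with enough counts, the log2 change lay between −0.51 (V1/V2b/Slit2) and 0.24 (V2a/Slc17a6), and none was called. Of all genes there, 0.114% were called in Fxyd6, 0.0634% in V1/V2b/Slit2, 0.0769% in V2a/Slc17a6 and 0.00% in V1/Adam23 and V2a/Etl4. In microglia the Sort1 change was 0.30 ± 0.34 (adjusted p = 0.81, edgeR; 0.600% of genes called). Of the 407 neurons with Nts, 55 held a Sort1 UMI, where 15.7% of all neurons held one.

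Genes whose pooled levels over the 38 subtypes ran most like those of a member were listed as a description among 4600 genes with at least 100 CPM in some subtype. All points of 1 subtype share their nuclei and depth. For Nts these were Spef2 (Pearson r = 0.73), C1ql3 (0.66), Tmem132d (0.65), Ppp2r2b (0.64) and Tnfaip8l3 (0.64), on log2(CPM + 10). C1ql3, a secreted C1q-like protein, was highest in the Nts subtype (1013 CPM) and at 875 CPM in Rora/Adarb2, and the other 4 were highest in Rora/Adarb2. For Ntsr2 they were Kcnip1 (0.65), Kcnq5 (0.55), Dpp6 (0.54), Gria3 (0.54) and Pcdh8 (0.53). For Sort1 they were Dus3l (0.62), Rnf170 (0.61), Celsr2 (0.54), Mia3 (0.54) and Nedd8 (0.52). Celsr2 lies on the same chromosome 29.34 kb from Sort1, with 4 annotated genes between them.

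Of 34 other genes of the pathway, 30 could be tested in neurons, and 3 rose and 0 fell in TESS samples (edgeR; 0.274% of all genes tested were called higher and 0.770% lower). The median log2 change of the 30 was 0.04, against −0.01 for all genes. Among 6 genes of peptide processing, Pcsk1, a convertase that cleaves precursors in the regulated secretory pathway, was at 52.1, 68.6 and 63.0 CPM in TESS samples, against 32, 28.4 and 33.7 CPM in CON samples. The log2 fold change was 0.94 ± 0.17 (adjusted p = 0.015, edgeR), and the call was lost without TESS 3 or CON 2 and with a batch term. The other 5 did not pass.

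Among 7 factors known at or near the Nts promoter, 5 were tested in all neurons and 2 rose there. Fos was at 18.8, 38.0 and 11.2 CPM in TESS samples, against 5.79, 10.8 and 4.67 CPM in CON samples (1.69 ± 0.37, adjusted p = 0.026, edgeR). Junb was at 16.1, 38.0 and 18.3 CPM in TESS samples, against 9.27, 8.84 and 9.35 CPM in CON samples (1.40 ± 0.31, adjusted p = 0.027, edgeR). TESS 2 was the highest sample for both. With a batch term the changes were 1.14 for Fos and 0.79 for Junb, and neither passed. The Fos call was also lost without TESS 2 (1.08), CON 1 or CON 3, and the Junb call without any 1 sample other than TESS 1, with 0.84 without TESS 2. In excitatory neurons neither passed (Fos 1.33 ± 0.41, adjusted p = 0.12, and Junb 1.33 ± 0.37, adjusted p = 0.088, edgeR). In inhibitory neurons Fos passed (1.99 ± 0.43, adjusted p = 0.039, edgeR; 0.292% of genes called) and Junb did not (1.42 ± 0.39, adjusted p = 0.11, edgeR). The 2 classes were not compared by a test.

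No gene of the other groups passed in neurons. The largest change of each was that of Sorcs2, a Vps10p-domain receptor related to sortilin, among 4 of that family (0.45 ± 0.17, adjusted p = 0.21, edgeR), Gna11, a Gq-family subunit, among 8 genes of Gq signalling (0.24 ± 0.21), Prep, a peptidase, among 5 peptidases (0.17 ± 0.23), and Grn, the sortilin ligand progranulin, of 2 tested partners (−0.15 ± 0.19). In astrocytes 12 of the 34 could be tested and none passed (0.781% of genes called higher and 0.195% lower; median log2 change 0.12, against 0.00 for all genes). The largest change of each list group tested there was that of Scg5, a granule protein (−0.87 ± 0.36), Prkce, a protein kinase C (0.67 ± 0.36), and Sorcs1 (0.60 ± 0.35). Nr3c1, the glucocorticoid receptor, was the 1 promoter factor tested there and had −0.02 ± 0.32.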

How the data were processed

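Nuclei from 6 samples were sequenced as 10x version 2 libraries, per the labels' protocols. The deposited matrix holds raw UMI counts per gene and nucleus, and the authors' deposited metadata give the sample, batch number, major type and subtype of each nucleus and a fraction of mitochondrial counts, which was not used. Cell Ranger 2.2.0, Seurat 3 and the build mm10 (GRCm38) are named per the submitters' processing notes, and the strand setting of counting is not given in the sources used here. Cell types are the authors' labels. No doublet caller was run and no nucleus was removed.

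Counts were summed per sample and class and tested with edgeR 4.0.16 in R 4.3.3 (TMM scaling, filterByExpr with a minimum count of 10, quasi-likelihood F test, Benjamini-Hochberg adjustment over all genes tested, threshold 0.05). CPM are counts scaled to 1e+06 UMIs of the class. Intervals are exact Poisson or exact binomial intervals, and a count of 0 is given with a limit of 3 counts. Values per sample were compared with two-sided exact permutation tests (3 against 3). Detection was compared with each nucleus thinned to 500 UMIs, leaving out shallower nuclei: 6, 42 and 44 neurons in TESS 1 to 3, and 23, 4 and 16 in CON 1 to 3. Neurons were placed in subtypes by a multinomial likelihood with Nts left out. On simulated counts for neurons, the edgeR test called 65.7% of 99 genes changed by 1 on the log2 scale and 0.0799% of 11263 unchanged genes.

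The members, gene lists and tests were chosen with earlier results of these data known. Of the pathway list, genes called in neurons or astrocytes and the gene with the largest change in each group of the list are named. The genes most like a member are the 5 with the highest r. Replicate numbers are in the labels of both groups, but deviations of same-numbered samples from their group means did not go together in neurons (r between −0.05 and −0.002), so samples were not treated as pairs. Alternatives were DESeq2 1.42.0, other scalings, no filter on low counts, a replicate block, a batch term, other thinning depths and leaving out each sample. A sample alone in its batch adds nothing to the change fitted with the batch term. That fit therefore compares TESS 1 with CON 1 and CON 2 only.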

Additional observations from a re-analysis of the deposited data

Results flagged for a closer look

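The change of Nts in the Nts subtype was set against that in all other neurons. The subtype may have been defined with Nts, so its nuclei may have been chosen in part by the gene tested, and the difference is a description. It was 1.01 ± 0.22 on the log2 scale (edgeR interaction term, adjusted p = 0.018, higher meaning a smaller fall in the Nts subtype). The edgeR adjusted p lay between 0.031 and 0.64 with 1 sample left out and was 0.89 with no filter on low counts. The other neurons include Rora/Adarb2. In separate fits the change was −0.51 in the Nts subtype, −1.44 in neurons outside it and −1.0 outside both subtypes. The cause of the difference was not tested.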

How the results depend on the processing

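The fall of Nts in neurons kept its direction under 14 alternatives (−1.59 to −1.0) and passed in 13; with a batch term it was −1.59 and did not pass (adjusted p = 0.73, edgeR). In excitatory neurons it passed in all 12 alternatives (−1.55 to −1.01). Replacing the Nts subtype by Rora/Adarb2, chosen after seeing the data, gave −1.86, and leaving out a sample of the Nts subtype gave −0.72 to −0.23. The replicate block gave −1.22 for Nts in neurons, with 169 genes called in place of 122, and changed no member's call. Nts in all nuclei was the 1 call of 18 tests of members in other classes; with a batch term 0 were called (−1.62), and with 1 sample left out 0 to 1. The 18 tests do not include Rora/Adarb2, neurons outside the Nts subtype or neurons outside both subtypes, in each of which Nts was called. All nuclei include the neurons, which held 96.8% of the Nts UMIs. The difference between the Nts subtype and other neurons was 0.56 with no filter and 0.82 to 1.05 with 1 sample left out.

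Sort1 in neurons changed sign about 0, at −0.0012 with no filter, −0.029 with a batch term and −0.068 to 0.087 with 1 sample left out. Other uncalled values also changed sign. With a batch term these were Ntsr2 in excitatory neurons (0.36), Sort1 in excitatory neurons (−0.075), V1/Adam23 (0.33) and V2a/Etl4 (0.098), and Grn in neurons (0.15). Sort1 in excitatory neurons was −0.022 with no filter, and Nr3c1 in astrocytes 0.0090 without TMM. With 1 sample left out, Nts ranged from −0.96 to 0.15 in inhibitory neurons and from −0.72 to 0.14 in oligodendrocytes. Ntsr2 ranged from −0.47 to 0.098 in excitatory neurons and from −0.59 to 0.033 in oligodendrocytes. Sort1 ranged from −0.13 to 0.021 in all nuclei, −0.14 to 0.092 in excitatory neurons, −0.043 to 0.11 in inhibitory neurons, −0.061 to 0.51 in microglia, −0.28 to 0.051 in Fxyd6, −0.19 to 0.22 in V1/Adam23 and −0.23 to 0.23 in V2a/Etl4. Nr3c1 in astrocytes ranged from −0.23 to 0.12. The cause was not tested.

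Genes called in neurons numbered 122, against 335 with no filter, 0 with a batch term and 19 to 105 with 1 sample left out. In excitatory neurons they numbered 90, against 40 with DESeq2, 181 with no filter, 43 with the block, 6 with a batch term and 9 to 80 with 1 sample left out. In astrocytes they numbered 20, against 6 with DESeq2 and 3 with a batch term. In all nuclei they numbered 101, against 158 with DESeq2, 250 with no filter and 0 with a batch term (961 genes at an unadjusted p under 0.05). DESeq2 gave no adjusted p for Fos, Junb, Pcsk1, Prep, Sorcs2, Grn and Gna11 in neurons, Ntsr2 in neurons of either class or together, and Nts in inhibitory neurons and oligodendrocytes. Exact tests of 3 against 3 samples cannot give less than 0.1, and the 34 Ntsr1 UMIs allow no comparison between groups.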
